A study of Mus musculus with 20 samples.

Results

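The clustered protocadherins are a family of cell adhesion genes that lie side by side in the alpha, beta and gamma clusters. They were taken here as every gene whose symbol is Pcdha, Pcdhac, Pcdhb, Pcdhga, Pcdhgb or Pcdhgc followed by a number, which gave 59 of the 24411 genes measured. The set held 12 alternate alpha isoforms (Pcdha1 to Pcdha12), 2 C-type alpha isoforms (Pcdhac1 and Pcdhac2), 22 beta, 12 gamma A, 7 gamma B and 3 gamma C isoforms, and 1 gene model, Pcdha7-g, that joins Pcdha7 to the gamma cluster.

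The study sequenced poly A RNA from the apical coil of the mouse cochlea, dissected as sensory epithelium with spiral ganglion, to ask how losing the long isoform of Bai1 (Adgrb1, an adhesion G protein-coupled receptor) alters the transcriptome before hearing, at postnatal day 7 (P7), and in the young adult, at P22. Bai1tm2b/tm2b mice (Homo) were compared with littermate Bai1tm2b/+ mice (Het), both sexes, on a C57BL/6N background. Each library pooled about 4 mice. There were 3 libraries per genotype at P22 (replicates 1 to 3) and 7 per genotype at P7, of which replicates 5 to 7 were deposited as estimated counts and replicates 1 to 4 as TPM (transcript abundance corrected for length and scaled to the same sum in each library) rounded to whole numbers. In the tm2b allele exons 3 and 4 of Adgrb1 are deleted from every cell and replaced by a lacZ cassette, while a short isoform is still made. The controls carried 1 copy of the same allele, so no group was wild type.

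Each alpha or gamma isoform has its own large first exon, with its own promoter, that codes for the extracellular cadherin repeats, and this exon is spliced to a short series of constant exons shared by the whole cluster. Beta isoforms are coded by a single exon and have no constant part. In the nervous system most isoforms are switched on at random by promoter choice that needs CTCF and cohesin, the C-type isoforms are more broadly or developmentally controlled, and cells carrying the same combination recognise each other, a basis for self-avoidance of neurites. Among the C-type isoforms, alpha C2 (Pcdhac2) is known for the tiling of serotonergic axons, gamma C3 (Pcdhgc3) for dendrite branching, and gamma C4 (Pcdhgc4) for neuronal survival.

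All members lie on mouse chromosome 18 (GRCm38, the mm10 build of the files). The alpha cluster spans 36930285 to 37188897, the beta cluster 37264998 to 37521419 and the gamma cluster 37661775 to 37841873. In RefSeq models each alpha transcript has 4 exons, of which the shared ones hold 2860 nucleotides, or 48.6% to 54.9% of its length. Gamma transcripts also have 4 exons and share 2116 to 2119 nucleotides, 41.7% to 45.9% of their length, whereas the 22 beta genes have 1 exon and share none. A read from a constant exon fits every isoform of its cluster, so the counting had to divide it: all 132 beta values were whole numbers in each set of counts, while almost all alpha and gamma values were fractions. Values of single alpha and gamma isoforms are therefore uncertain beyond the spread shown, and more so for Pcdha7 and Pcdha7-g, which overlap. The sum over a cluster does not depend on how shared reads were divided within it, apart from those given to Pcdha7-g.

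The 6 P22 libraries held 35725985 to 40350413 counts and the 6 P7 count libraries 31108551 to 58807173. Of 10 hair cell, 10 supporting cell and 10 spiral ganglion neuron markers none was at 0 in any set. As a check of the labels, Adgrb1 was 142 ± 7.34 CPM (counts scaled to the size of the library; SD, n = 3) in Het and 93.3 ± 2.51 CPM in Homo at P22, and 45.5 ± 14.03 and 29.2 ± 5.26 CPM in the P7 counts, with no overlap at either age. In the rounded TPM it was 9.54 ± 1.90 in Het and 9.61 ± 1.17 in Homo (n = 4) and the groups overlapped. The whole-gene level showed no fall there (adjusted p = 0.93 by limma), so it does not check the labels of these 8 libraries. These are whole-gene values that include the remaining short isoform.

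Per length of transcript, 1 isoform stood far above the rest. Pcdhgc3 gave 45.8 CPM per kilobase at P7 and 35.9 at P22, and 99.8 TPM in the rounded P7 values, the highest level of the 58 members with a known length in all 3. The next at P7 were Pcdhgb6 at 7.19 and Pcdhb17 at 5.73 CPM per kilobase. At P22 Pcdhac2 was in the second place, at 13.7 CPM per kilobase against 3.26 at P7, where it stood in place 9. The same scale put Pcdhgc4 at 1.72 in place 28 at P7 and at 4.15 in place 5 at P22.

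The alternate alpha isoforms were the lowest group, with a median of 0.368 CPM per kilobase at P7 and 0.970 at P22. Their highest members by rounded P7 TPM were Pcdha2 and Pcdha3 (2.21 and 1.73 TPM), with 0.841 and 0.476 CPM per kilobase at P7 and 2.67 and 1.57 at P22. Beta medians were 1.08 and 1.45, gamma A medians 2.40 and 2.69, and gamma B medians 2.02 and 2.14 CPM per kilobase. By rounded P7 TPM the highest beta isoforms were Pcdhb17 (12.4 TPM) and Pcdhb20 (6.61 TPM, with 2.56 CPM per kilobase at P7 and 3.35 at P22). On the same measure the highest gamma A isoforms were Pcdhga7 (9.05 TPM, with 5.26 and 3.44 CPM per kilobase) and Pcdhga11 (8.57 TPM, with 4.54 and 4.11), and the highest gamma B isoforms were Pcdhgb6 (13.03 TPM) and Pcdhgb7 (6.57 TPM, with 3.89 and 3.90 CPM per kilobase). At the other end Pcdha8 gave 0.0282 and Pcdhb1 0.0599 CPM per kilobase at P7.

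**Figure D1:**
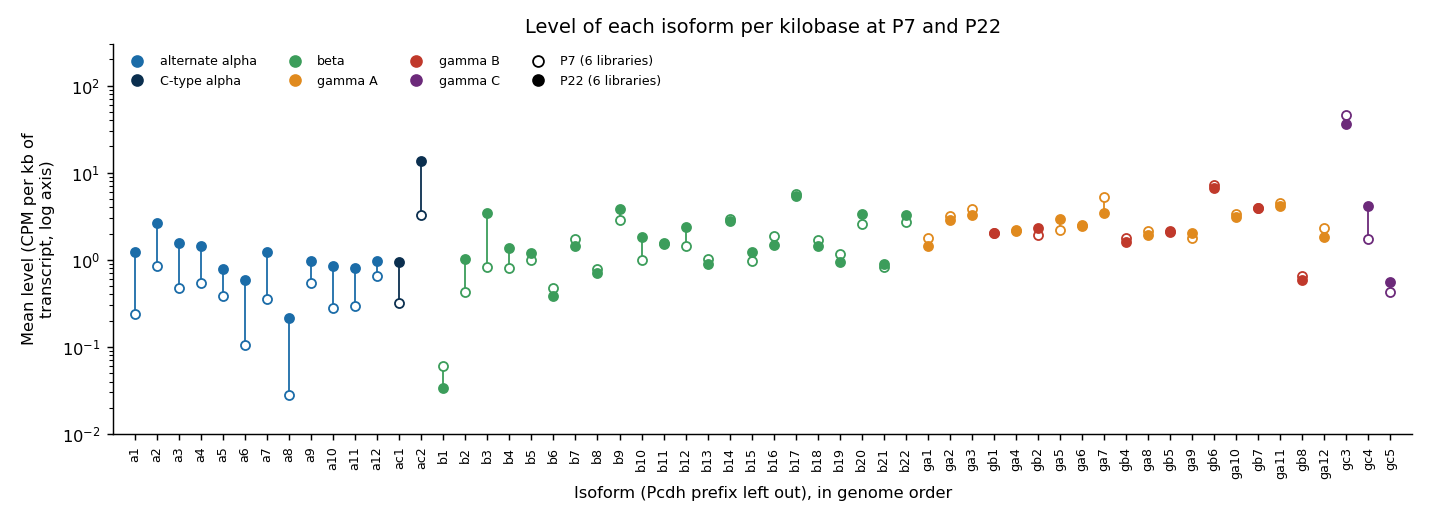
Level of each member per kilobase of transcript (CPM per kilobase, log axis), mean of the 6 count libraries at P7 and of the 6 at P22, by group. Pcdhgc3 lies highest at both ages (45.8 and 35.9), and Pcdhac2 moves from 3.26 to 13.7.

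The first comparison was of age, P22 with P7, over the 12 count libraries scaled together, with genotype as a term. The alpha cluster as a whole was 3.4-fold higher at P22, the beta cluster was little different and the gamma cluster was slightly lower, so the make-up of the family differed between the ages. Age coincides with the table in which the counts were deposited and with the batch of mice, and these cannot be told apart from it. In bulk samples, more cells of a type and more RNA per cell also cannot be told apart.

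The summed alpha level was 38.3, 73.1 and 44.5 CPM in the Het and 31.0, 41.6 and 48.4 CPM in the Homo libraries at P7, and 175.8, 161.2 and 188.7 CPM in the Het and 139.8, 132.1 and 144.0 CPM in the Homo libraries at P22. Every P22 library was above every P7 library. The means were 46.2 ± 14.5 and 157 ± 22.2 CPM (SD, n = 6), a ratio of 3.4, and the ratio was 3.37 within Het and 3.44 within Homo.

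The alternate alpha sum went from 25.3 ± 9.40 to 71.0 ± 6.57 CPM and the C-type alpha sum from 20.9 ± 5.72 to 85.9 ± 16.4 CPM, neither with overlap. The beta sum was 120 ± 9.11 CPM at P7 and 140 ± 7.71 CPM at P22, and the gamma sum was 483 ± 37.3 and 433 ± 10.03 CPM. Both overlapped between the ages. Of all reads assigned to the family, alpha isoforms took 7.01% ± 1.65 at P7 and 21.4% ± 2.28 at P22, gamma isoforms 74.3% ± 1.55 and 59.2% ± 2.79, and neither share overlapped. The beta share was 18.5% and 19.1%.

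The scaling between ages sets where 0 lies. With the library total in place of trimmed-mean (TMM) scaling the median of all genes moved by -0.29 on the log2 scale, the log2 ratio of the alpha sum was 1.48 in place of 1.77 and still without overlap, the beta ratio changed sign from 0.22 to -0.072, and the gamma ratio went from -0.16 to -0.44, without overlap.

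**Figure D2:**
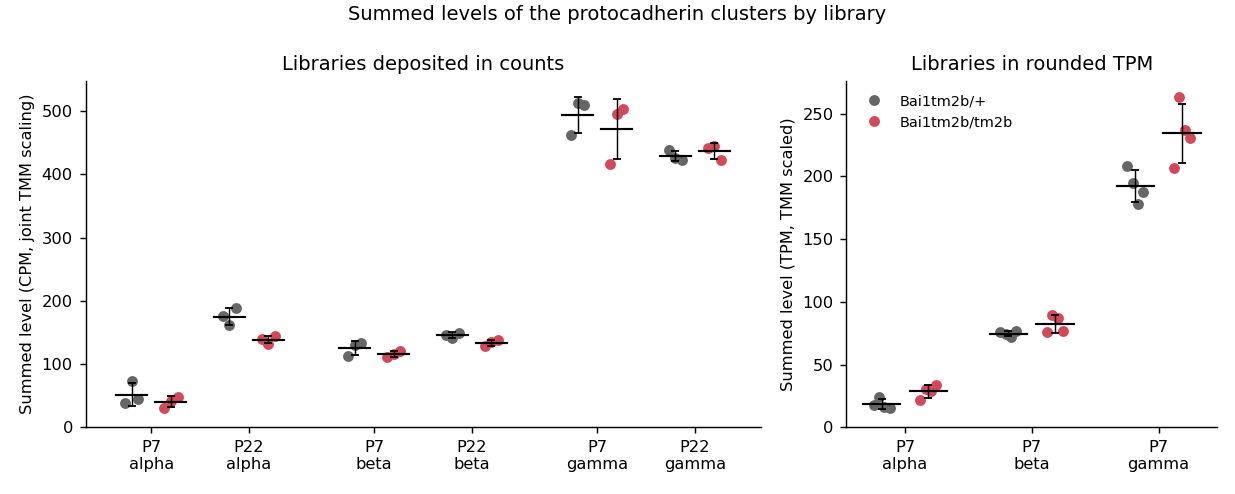
Summed level of the alpha, beta and gamma clusters in every library, as CPM for the count sets and TPM for the rounded P7 values, Het and Homo apart, with points for libraries and bars for means ± SD. The 12 count libraries are scaled together. The alpha sum is 132.1 to 188.7 CPM at P22 and 31.0 to 73.1 CPM at P7, and at P22 its 3 Homo libraries lie below its 3 Het libraries.

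Of the 58 members that passed the filter on low counts, 17 were called higher at P22 (edgeR's quasi-likelihood test, Benjamini-Hochberg adjusted p under 0.05 over all genes, log2 fold change beyond 0.5 and its standard error under 0.5) and 1 was called lower. Among all 16314 genes tested 25.9% were called higher and 28.6% lower. At an adjusted p under 0.05 alone, 26 members rose and 6 fell, against 38.1% and 41.7% of all genes. The members' median log2 fold change was 0.23, against -0.05 over all genes.

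All 12 alternate alpha isoforms rose at that adjusted p, with log2 fold changes of 0.55 (Pcdha12) to 2.95 (Pcdha8) and a median of 1.64. Of these, 9 were also called. Pcdha6, Pcdha7 and Pcdha8 were not, because their standard errors were above 0.5. The 12 share 2860 nucleotides of constant exons, whose reads were divided among them, so they are not 12 separate observations. In 1 genotype alone Pcdha5, Pcdha6, Pcdha11 and Pcdha12 did not pass (adjusted p of 0.0551 to 0.357 by edgeR). Pcdha1 had the largest change among the called, from a median of 1.25 CPM (0.599 to 1.66) to 6.56 CPM (3.38 to 8.78), a log2 fold change of 2.41 ± 0.245 (SE; adjusted p = 5.79e-07 by edgeR). The better expressed Pcdha2 and Pcdha3 rose by 1.70 and 1.74. Pcdha8 had 0 counts in 1 P7 library, where 3 counts would be 0.0812 CPM, and its fold rests on a P7 median of 0.0776 CPM.

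Both C-type alpha isoforms rose. Pcdhac2 (37143678 to 37187663) went from a median of 17.2 CPM (15.5 to 30.2) at P7 to 79.8 CPM (62.7 to 99.02) at P22. The means were 19.2 and 80.7 CPM, a ratio of 4.21, with a log2 fold change of 2.06 ± 0.138 (SE; adjusted p = 7.21e-09 by edgeR). It made up 51.2% ± 2.98 of all alpha counts at P22 and 42.4% ± 7.002 at P7, with overlap. Pcdhac1 (37090136 to 37187657) went from 1.63 CPM (1.22 to 2.32) to 5.07 CPM (3.06 to 7.12), a log2 fold change of 1.58 (adjusted p = 1.34e-06 by edgeR). For both genes the lowest P22 library was above the highest P7 library. The fusion model Pcdha7-g had a log2 fold change of 1.29 ± 0.672 (SE; adjusted p = 0.0924 by edgeR).

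The beta isoforms, whose reads are not shared, did not move as a block. Of 21 tested, 5 were called higher and 0 lower, and at an adjusted p under 0.05 alone 9 rose and 2 fell. Pcdhb3 (37300799 to 37304585) had the largest change, from a median of 3.32 CPM (1.99 to 3.91) to 13.1 CPM (9.76 to 14.9), with a log2 fold change of 2.07 ± 0.128 (SE; adjusted p = 3.28e-09 by edgeR). Every P22 library was above every P7 library for this gene. Its neighbour Pcdhb2 rose by 1.24, Pcdhb10 by 0.84, Pcdhb4 by 0.77 and Pcdhb12 by 0.73. The isoforms that fell were Pcdhb16, with a log2 fold change of -0.33, and Pcdhb18, at -0.23. Pcdhb18 no longer passed by DESeq2, without any 1 of several libraries (adjusted p up to 0.104 by edgeR) or in either genotype alone (up to 0.36), and Pcdhb16 did not pass in Homo alone (0.0935). Pcdhb6 was at -0.36 with an adjusted p of 0.141. With the library total as scale 8 of the 22 beta genes were higher and 14 lower at P22.

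In the gamma cluster the changes went both ways. Pcdhgc4 (37815079 to 37841873) went from a median of 8.59 CPM (4.48 to 13.5) to 20.1 CPM (13.9 to 27.8), a log2 fold change of 1.26 ± 0.208 (SE; adjusted p = 7.47e-05 by edgeR), and from 1.76% to 4.84% of gamma counts, without overlap. Pcdhga7 (37714834 to 37841873) was the member called lower, from 24.3 CPM (21.7 to 27.8) to 16.3 CPM (14.6 to 18.4), a log2 fold change of -0.62 ± 0.0683 (SE; adjusted p = 1.39e-06 by edgeR). Every P22 library of Pcdhga7 was below every P7 library.

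The abundant Pcdhgc3 (37806410 to 37841873) fell by 0.35 on the log2 scale, from 218 CPM (188 to 232) to 169 CPM (161 to 176), with an adjusted p of 7.83e-05, and its share of gamma counts was 44.5% ± 1.16 at P7 and 38.9% ± 1.04 at P22. Pcdhga5 rose by 0.42 and Pcdhgb2 by 0.28, Pcdhga1 fell by 0.33 and Pcdhga12 fell by 0.34. None of these 4 passed in both genotypes taken alone, and Pcdhgb2 did not pass in either, or without any 1 of several libraries (adjusted p up to 0.0628 by edgeR). Pcdhgb4 was at -0.18 (adjusted p = 0.133) and Pcdhgc5 at 0.40 (adjusted p = 0.101). With the library total as scale 3 of the 22 gamma genes were higher and 19 lower.

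**Figure D3:**
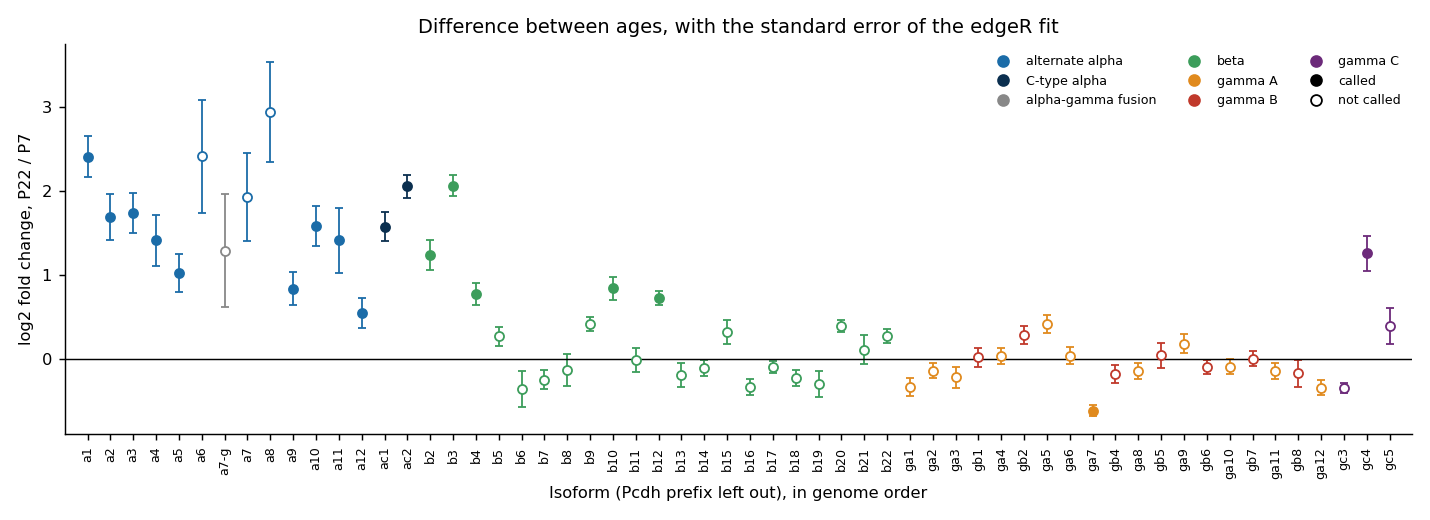
Log2 fold change from P7 to P22 of each member tested, by group, with standard errors derived from edgeR's F statistic. All 12 alternate alpha and both C-type alpha isoforms lie above 0, Pcdhb3 (2.07) and Pcdhgc4 (1.26) stand out of the beta and gamma groups, and Pcdhga7 lies lowest at -0.62.

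The genes that handle these proteins moved unevenly between the ages, where 25.9% of all 16314 genes tested were called higher and 28.6% lower. Of 16 regulators of promoter choice, 1 was called higher and 9 lower: the cohesin subunit Smc1a rose by 0.67, while the DNA methyltransferase Dnmt3a fell by 0.88, the cohesin release factor Wapal fell by 0.75 and the cohesin subunit Stag1 fell by 0.74 on the log2 scale. Of 16 cytoplasmic partners, 3 were called in each direction, among them Cyfip2 of the WAVE actin complex, which rose by 1.00, and Marcks, a membrane and actin protein, which fell by 2.79. Of the 6 cleavage genes, the gamma-secretase subunits Psenen and Psen2 rose by 0.83 and 0.69 and Ncstn fell by 0.81. Of 12 non-clustered protocadherins, related genes that lie singly in the genome, 9 were called lower and 0 higher, with Pcdh17 at -2.64, Pcdh18 at -2.52 and Pcdh19 at -1.30.

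Markers of cell types moved with age too. The summed level of 10 spiral ganglion neuron markers was 1244 to 3006 CPM at P7 and 13305 to 20370.3 CPM at P22, with 9 of the 10 higher and 1 (Gata3) lower without overlap and none at 0. Of all genes 25.9% were called higher and 28.6% lower, and the share without overlap was not computed. The 8 Schwann cell markers summed to 5408 to 15959 and 20751 to 25598 CPM, with 6 called higher and 0 lower. The 10 supporting cell markers summed to 6045 to 10992 and 1129 to 1587 CPM, with 1 called higher and 7 lower. The 5 proliferation genes summed to 60.0 to 136 and 5.16 to 17.7 CPM, with 0 called higher and 5 lower. Their part in the protocadherin differences was not tested.

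The second comparison was of genotype at P22, where the 6 libraries were scaled on their own, so that CPM here differ from those given for age. The alpha isoforms were lower in Homo than in Het as a cluster, mostly through Pcdhac2, while the gamma cluster did not separate the genotypes. The alpha sum was 158.9, 145.1 and 170.4 CPM in the Het libraries and 126.6, 119.7 and 131.0 CPM in the Homo libraries, so that all 3 Homo libraries lay below all 3 Het libraries. The means were 158 ± 12.7 and 126 ± 5.71 CPM (SD, n = 3), a log2 ratio of -0.33 that ranged from -0.39 to -0.27 when 1 library was left out.

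The C-type alpha sum was 89.9 ± 7.19 CPM in Het and 65.5 ± 6.50 CPM in Homo, and the alternate alpha sum 68.3 ± 5.78 and 60.2 ± 1.74 CPM. Neither overlapped, but the alternate alpha sum did with the library total as scale. The beta sum was 132.6, 127.0 and 135.2 CPM in Het and 116.6, 122.0 and 125.5 CPM in Homo, a log2 ratio of -0.12, and it too overlapped on the library total, at -0.053. The gamma sum was 387 ± 7.44 and 396 ± 9.88 CPM with overlap, a log2 ratio of 0.03, and on the library total the ratio was 0.10 with Homo above Het throughout. Alpha isoforms took 23.2% ± 1.30 of the family's counts in Het and 19.5% ± 0.916 in Homo, without overlap, a share that scaling does not touch.

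Of the 58 members tested at P22, 0 were called in either direction by edgeR, where 3.15% of 15443 genes were. At an adjusted p under 0.05 with no minimum fold, 1 member passed against 12.3% of all genes. At an unadjusted p under 0.05, 2 members were higher and 5 lower, against 13.7% and 15.0% of all genes. DESeq2 called 1, Pcdhgb8, and gave 8 members an unadjusted p under 0.05. The members' median log2 fold change was -0.08, against 0.01 over all genes, with 22 above 0 and 36 below. Over all 15443 genes 8086 lay above 0 and 7357 below. Pcdhb1 was not tested, with at most 5 counts in a library.

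The member that passed was Pcdhac2. Its level was 87.1, 76.5 and 89.5 CPM in Het and 60.3, 56.8 and 67.9 CPM in Homo, and every Homo library lay below every Het library. The log2 fold change was -0.45 ± 0.0824 (SE; adjusted p = 0.00783 by edgeR), a fall of 26.9% that was under the minimum fold for a call. Over the alternatives its adjusted p ran from 7.27e-06 to 0.0416. It made up 53.4% ± 1.29 of alpha counts in Het and 49.0% ± 2.48 in Homo, without overlap. Without Pcdhac2 the other 13 alpha isoforms summed to 73.8 ± 6.46 CPM in Het and 64.1 ± 1.90 CPM in Homo.

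Pcdhac1 was 4.66, 5.36 and 6.43 CPM in Het and 4.24, 2.77 and 4.54 CPM in Homo, a log2 fold change of -0.51 (adjusted p = 0.13 by edgeR). Its groups also did not overlap, but the difference did not pass. Of the 12 alternate alpha isoforms 9 lay below 0, with a median of -0.26. On the library total 3 were higher and 9 lower. The lowest was Pcdha11 at -0.56 (adjusted p = 0.147), and the highest Pcdha7 at 0.29 (adjusted p = 0.206), with 5.38, 5.14 and 5.32 CPM in Het and 7.09, 6.86 and 5.45 CPM in Homo. Pcdha7-g, which begins beside Pcdha7, was at -1.04 ± 0.55 (SE), and the sum of both gene models overlapped, at 7.20 to 8.88 CPM in Het and 7.40 to 8.34 CPM in Homo.

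Of the 21 beta isoforms tested 17 lay below 0, against 7357 of all 15443 genes. Their median was -0.12, with a range from -0.57 (Pcdhb6, adjusted p = 0.209 by edgeR) to 0.10 (Pcdhb18). With the library total as scale 8 of the 22 beta genes were higher and 14 lower in Homo. Pcdhb2 was at -0.51 (adjusted p = 0.134) with 3.00 ± 0.515 CPM in Het and 2.11 ± 0.21 CPM in Homo. No beta isoform passed the test.

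Of the 12 gamma A isoforms 9 lay above 0, with a median of 0.06, against 8086 of all 15443 genes. On the library total 11 were higher and 1 lower. The largest difference was Pcdhga7 at 14.2, 13.1 and 13.2 CPM in Het and 16.7, 15.2 and 15.9 CPM in Homo, a log2 fold change of 0.24 (adjusted p = 0.101 by edgeR), whereas Pcdhga3 was lowest at -0.19. In gamma B, Pcdhgb8, annotated as a transcribed pseudogene, was 1.23, 2.01 and 2.13 CPM in Het and 2.97, 2.87 and 3.41 CPM in Homo, at 0.79 ± 0.237 (SE; adjusted p = 0.0538 by edgeR). Both pairs of groups were apart, but neither passed. Pcdhgb7 was the lowest gamma B isoform at -0.14. Among gamma C, Pcdhgc3 was at 0.06 (149 ± 5.28 CPM in Het, 156 ± 3.30 CPM in Homo), Pcdhgc4 at -0.38 (adjusted p = 0.15) and Pcdhgc5 at 0.59 (adjusted p = 0.194).

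**Figure D4:**
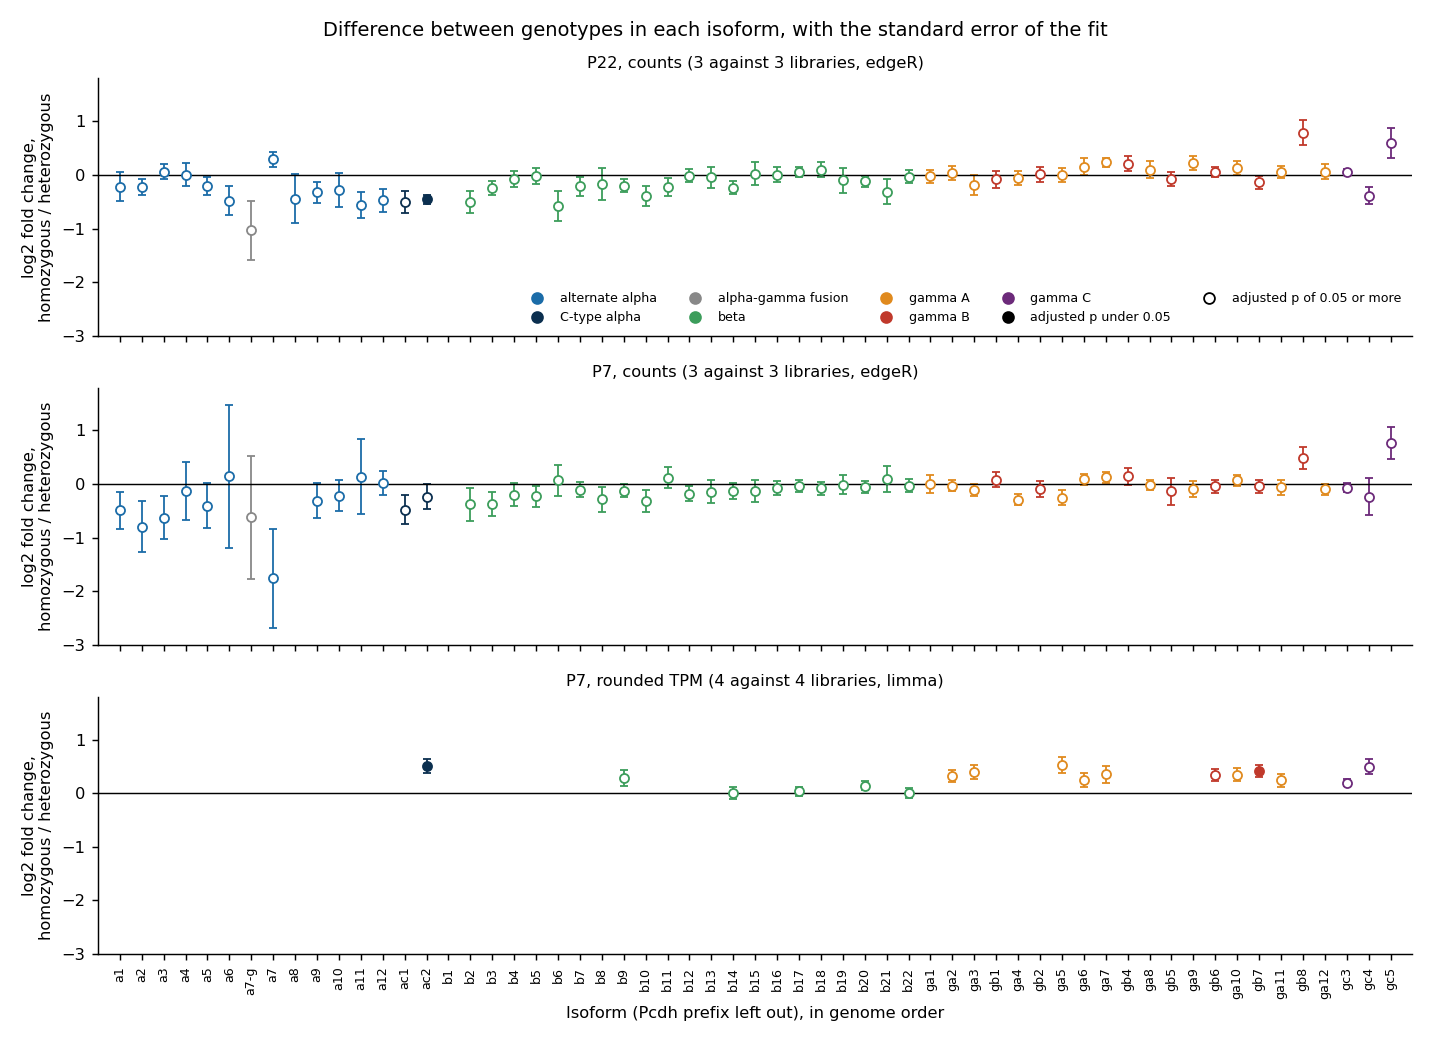
Log2 fold change of Homo against Het for each member tested, at P22, in the P7 counts and in the rounded P7 TPM, by group. At P22 and in the P7 counts most members lie slightly below 0 (medians -0.08 and -0.10), and in the rounded TPM all 17 tested lie above it (median 0.33).

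Neuronal markers moved in the same libraries. The 10 spiral ganglion neuron markers summed to 16417 to 18402 CPM in Het and 12054 to 13598 CPM in Homo at P22. This was a fall of 27.1% without overlap, with 6 of 10 genes lower and 1 higher without overlap and none at 0. At an unadjusted p under 0.05 by edgeR, 6 were lower and 1 higher, against 15.0% and 13.7% of all genes. The share of all genes without overlap was not computed, for this list or for those that follow. The 7 central glia markers summed to 379 to 422 and 503 to 848 CPM, with 4 of 7 higher without overlap and none at 0. The 10 supporting cell markers summed to 1021 to 1127 and 1228 to 1445 CPM, with 5 higher and 1 lower without overlap. Among these supporting cell markers 4 were called higher and 1 lower, where 3.15% of all genes were called. The 10 brain neuron markers summed to 192 to 201 and 205 to 213 CPM. Of the brain neuron markers 2 were higher and 2 lower without overlap, and 4 of the 7 tested lay below 0. The 10 hair cell markers summed to 1049.8 to 1105 CPM in Het and 1083 to 1164 CPM in Homo, with overlap, while 6 were higher and 1 lower without overlap and 2 were called higher. Their part in the Pcdhac2 and alpha differences was not tested. Of the related genes, Pcdh20 was called lower, at 25.3 ± 3.01 CPM in Het and 16.8 ± 1.73 CPM in Homo (log2 fold change -0.59, adjusted p = 0.00783 by edgeR). Pcdh7 fell by 0.41, the cohesin regulator Pds5a fell by 0.39, the receptor tyrosine kinase gene Ret fell by 0.46 and Cyfip2 fell by 0.24, all with adjusted p from 0.0324 to 0.0451 by edgeR. At that adjusted threshold passed 1 of 16 regulators, 2 of 16 cytoplasmic partners and 2 of 12 non-clustered protocadherins, against 12.3% of all genes. None of the 6 cleavage genes passed.

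The third comparison was of genotype at P7, in 2 sets of libraries that were kept apart because of their units. In the counts of replicates 5 to 7, also scaled on their own, no cluster separated the genotypes. The alpha sum was 42.4, 79.7 and 48.7 CPM in Het and 35.5, 45.8 and 53.1 CPM in Homo. Het replicate 6 was by far the highest, and without it the log2 ratio was -0.02 in place of -0.34. The same library had the highest spiral ganglion neuron sum (3275 CPM, against 1425 to 2117 CPM in the other 5) and the highest Schwann cell sum (17385 CPM, against 5957 to 14146 CPM), whose part in the alpha level was not tested. The beta sums were 137 ± 10.8 and 129 ± 3.33 CPM and the gamma sums 542 ± 27.2 and 525 ± 41.6 CPM.

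Of the 57 members tested 0 were called by edgeR or by DESeq2, where edgeR called 0.0% of 16026 genes. At an unadjusted p under 0.05 there were 2 members by edgeR and 3 by DESeq2, a share near the 4.76% of all genes for edgeR. Pcdhgc5 was 1.79, 2.08 and 1.11 CPM in Het and 3.48, 2.15 and 2.83 CPM in Homo, a log2 fold change of 0.77, and Pcdhga4 was 11.03, 12.9 and 12.9 and 9.68, 10.1 and 10.4 CPM, a log2 fold change of -0.29. Neither pair of groups overlapped, yet the smallest adjusted p of any member was 0.894. Pcdha8 and Pcdhb1 were not tested, with at most 18.3 and 10 counts.

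Pcdhac2 was 17.2, 32.9 and 18.5 CPM in Het and 19.996, 18.8 and 19.8 CPM in Homo. Its log2 fold change was -0.23 with all libraries and 0.13 without Het replicate 6. Pcdhac1 was at -0.48. Pcdha7 was 2.14, 5.08 and 2.37 CPM in Het and 0, 1.23 and 1.60 CPM in Homo, where 3 counts would be 0.0812 CPM, and its log2 fold change was -1.76 ± 0.921 (SE). The alternate alpha median was -0.31, and Pcdha6, at 0 in 2 of the Homo libraries, was highest at 0.15.

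The largest beta differences were -0.38 (Pcdhb2) and 0.12 (Pcdhb11). In the gamma cluster Pcdhga7 was at 0.13, Pcdhgb5 at -0.14, Pcdhgb8 at 0.49 with 2.26, 2.59 and 3.35 CPM in Het and 4.21, 3.94 and 3.37 CPM in Homo, Pcdhgc4 at -0.24 and Pcdhgc3 at -0.07. Fusion model Pcdha7-g was at -0.62 ± 1.15 (SE), with 1 Het library at 0. None of the 50 genes of the 4 related lists passed either.

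**Figure D5:**
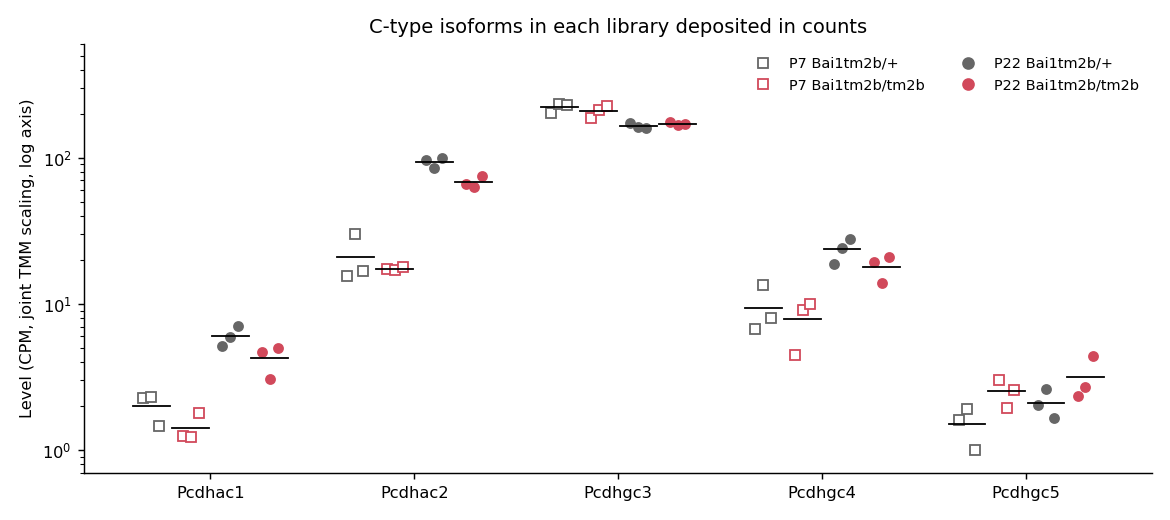
Level of the 5 C-type isoforms in each count library (CPM, log axis), Het and Homo at P7 and P22, with all 12 libraries scaled together and bars for means. Pcdhac2 is 15.5 to 30.2 CPM at P7, with Het replicate 6 highest, and at P22 its Homo libraries (62.7 to 74.6 CPM) lie below its Het libraries (85.0 to 99.02 CPM).

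In the rounded TPM of replicates 1 to 4 most members lay on the other side of 0. Adgrb1 did not separate the genotypes in these libraries. Only 17 members reached a mean of 5 TPM and were tested, with 0 of the alternate alpha isoforms among them. All 17 were at or above 0 in Homo against Het, with a median of 0.33 against 0.01 over all genes. The filter took the mean over both genotypes, so members such as Pcdhga5 (3.87 TPM in Het, 6.01 TPM in Homo) passed only through Homo. The shared direction of the 17 leans in part on that filter. Among members not tested, Pcdhb5, Pcdhb3 and Pcdhb7 had log2 ratios of means of -0.24, -0.12 and -0.11. With the library total as scale, 56 members were higher in Homo and 1 lower. The log2 fold changes are on the log2(TPM + 1) scale, which understates changes of low genes, and rounding to whole TPM limits them further. limma called 1 member higher, where 0.826% of 11740 genes were called, and 2 passed an adjusted p under 0.05 against 8.02%. At an unadjusted p under 0.05 10 were higher and 0 lower, against 18.5% and 16.1% of all genes.

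The called member was Pcdhac2, at 7.90, 9.04, 6.42 and 6.59 TPM in Het and 8.86, 11.5, 11.7 and 12.1 TPM in Homo, a log2 fold change of 0.51 ± 0.124 (SE; adjusted p = 0.0454 by limma). The lowest Homo library overlapped the Het libraries. The call was lost in several alternatives, with an adjusted p of up to 0.127. Pcdhgb7 was 4.94, 6.02, 5.35 and 5.49 TPM in Het and 6.89, 9.55, 6.85 and 7.46 TPM in Homo, without overlap, at 0.42 (adjusted p = 0.0499 by limma).

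Pcdhga5 was at 0.53 (adjusted p = 0.0546), Pcdhgc4 at 0.49 (adjusted p = 0.055), Pcdhgb6 at 0.34, Pcdhga11 at 0.24, Pcdhgc3 at 0.19 and Pcdhb9 at 0.28, and Pcdhb22 was lowest at 0.00. The alpha sum was 18.3 ± 3.98 TPM in Het and 28.8 ± 5.07 TPM in Homo and the gamma sum 192 ± 12.9 and 234 ± 23.3 TPM, both with overlap, while the sum over all members, 286 ± 15.8 and 346 ± 33.3 TPM, had none. The beta sum was 74.7 ± 2.30 and 82.3 ± 7.17 TPM.

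Transcript length moved with the genotype difference in these libraries: over 11352 genes the log2 fold change had a Spearman correlation of 0.60 with length, across genes that share the same 8 libraries. Members have a median length of 4689 nucleotides against 3085 for all genes, and the 2341 genes of like length had a median log2 fold change of 0.11. With the trend on length removed the members' median was 0.23 and none was called. Spiral ganglion neuron markers summed to 1909 to 2811 TPM in Het and 2080 to 3109 TPM in Homo. Without overlap 1 of 10 was higher, a count with no share of all genes computed beside it, and none was at 0. Of the 8 tested, 4 were higher and 0 lower at an unadjusted p under 0.05 by limma, against 18.5% and 16.1% of all genes. Central glia markers summed to 274 to 417 and 233 to 281 TPM. Their part was not tested. In the related lists 0 genes were called, and the regulator Smc1a rose by 0.40, Dnmt3a by 0.34 and the partner Cyfip2 by 0.27 at adjusted p from 0.0436 to 0.0497 by limma. These were 2 of 15 regulators and 1 of 14 partners tested, with 0 in the other related lists, against 8.02% of all genes.

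Whether the genotype difference itself changed with age was tested in the 12 count libraries by an interaction term. Of the 58 members 0 were called by edgeR or DESeq2, against 0.0306% of all genes. At an unadjusted p under 0.05 by edgeR there was 1, Pcdha7 (log2 difference 2.06, adjusted p = 0.441). Over all 16314 genes 950 were above 0 and 716 below at that unadjusted p. The P22 libraries enter the age and the genotype comparisons alike, so these are not independent. Spread among replicates also differed by group. The median coefficient of variation fitted by edgeR was 18.8% at P22 and 36.8% in the P7 counts for the alternate alpha isoforms. It was 13.4% and 17.8% for beta and 12.1% and 11.3% for gamma A. For all genes between the lowest and the highest member in level it was 8.70% and 11.6%. Those genes were not matched on level, with medians of 4.61 and 4.81 log2 CPM. The medians were 2.24 and 1.19 for alternate alpha, 2.23 and 2.29 for beta and 3.52 and 3.70 for gamma A. The fusion model Pcdha7-g had 47.2% and 108%.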

How the data were processed

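Poly A RNA of 20 libraries was sequenced by the authors (paired-end, NovaSeq) and processed with the nf-core RNA pipeline on mm10. Salmon gave the deposited estimated counts for P22 and for P7 replicates 5 to 7. The deposited P7 replicates 1 to 4 hold TPM rounded to whole numbers by the authors, treated as a score, with sums of 999644 to 999777 per library and unknown depth. Versions, annotation and strand setting are not given in the sources used here. Estimated counts were rounded and tested with edgeR 4.0.16 (filterByExpr, TMM, quasi-likelihood, R 4.3.3), with DESeq2 1.42.0 as alternative. Rounded TPM were tested with limma 3.58.1 on log2(TPM + 1), leaving out genes whose mean was under 5 TPM. All p-values are two-sided and adjusted over all genes of a set, and a called gene also needed a log2 fold change beyond 0.5 with a standard error under 0.5. For edgeR the standard error was derived, as the absolute log2 fold change divided by the square root of the F statistic. Fits were tested on simulated data, with changes placed only in well-expressed genes of narrow spread. The simulation therefore does not show whether changes in low isoforms with wide spread, such as the alternate alpha ones, would be found. Lengths come from RefSeq models and matched 96.1% of genes. Members and gene lists were chosen with earlier results of these data known. Named were all C-type isoforms, the 2 highest of each other group by rounded TPM, the largest rise and fall of each group in each comparison, every member called by genotype, and up to 4 genes of each related list by p. Replicates are pools of different mice, and P7 sets were never merged. TMM scaling ran within each comparison, so CPM of 1 library differ between comparisons.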

Additional observations from a re-analysis of the deposited data

Results flagged for a closer look

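The libraries of Pcdha7 lay apart by genotype in opposite directions at the 2 ages, though it passed the test at neither. It was the only such case found by looking through all 59 members in each pair of genotype comparisons. The share of all genes with such a pattern was not computed. In the P7 counts Homo replicate 5 was at 0 for this gene. At P22 all 3 Homo libraries lay above all 3 Het libraries, with a log2 ratio of means of 0.29, and in the P7 counts all 3 Homo libraries lay below, with a log2 ratio of -1.76. The interaction of age and genotype for this gene had an adjusted p of 0.441 by edgeR, and the sum with Pcdha7-g overlapped at both ages.

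In the rounded TPM, Pcdhga10 was 5.91 TPM in Homo replicate 1, where the other 3 Homo libraries gave 8.40 to 8.81 TPM, a gap wide for the range of 4 libraries by Dixon's test. It was the 1 such case among 40 groups tested, and chance gives about 1 in 20.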

How the results depend on the processing

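Of 1105 recomputed values 1002 were labelled as unchanged. Fold changes of single members had to keep their direction and side of the threshold, and medians and sums had to move by less than the spread. Counts of genes had only to stay within a preset fold of the main count. Those that bear on the results follow, and the cause was not tested. The adjusted p of members followed singly stayed on its side of 0.05, with the sign of the fold change kept, in every alternative for 6 of 7 at P22, 4 of 6 in the P7 counts, 1 of 10 in the rounded TPM and 20 of 32 between ages. At P22 only Pcdhac2 was under 0.05 in the main fit, and the others that held stayed above it. In the P7 counts Pcdhac2, Pcdha7, Pcdhac1 and Pcdhgc4 were followed by choice. No followed member came under 0.57 there, so that count speaks only to the sign. At P22, with 0 members called, keeping all genes with a count or using DESeq2 called 1 (Pcdhgb8), and leaving out 1 library called 0 to 2 (Pcdhac2 without Het replicate 2; Pcdhac2 and Pcdha7-g without Homo replicate 3), with 4 to 14 in place of 7 members at an unadjusted p under 0.05. In the P7 counts these were 1 to 2, and the log2 fold changes of Pcdhac2 and Pcdhgc4 ran from -0.39 to 0.13 and from -0.44 to 0.11 as 1 library was left out, Het replicate 6 for the highest. In the rounded TPM, with 1 called, a minimum of 1 TPM or removing the length trend called 0 and no TMM scaling 4 (Pcdhac2, Pcdhga5, Pcdhgb7 and Pcdhgc4), leaving out 1 library 0 to 3, and the unadjusted count was 19 with a minimum of 1 TPM and 6 without the length trend, against 10. Between ages 16 to 18 members were called higher and 1 to 2 lower when 1 library was left out (Pcdhb6 without P7 Het replicate 5). Of the 12 that lost the adjusted p between ages, all kept their sign. Leaving out 1 library took Pcdhb5, Pcdhb18 and Pcdhgb2 to at most 0.0923, 0.104 and 0.0628. In 1 genotype alone Pcdha5 reached 0.0551, Pcdha6 0.148, Pcdha11 0.148, Pcdha12 0.357, Pcdhb5 0.225, Pcdhb16 0.0935, Pcdhb18 0.36, Pcdhb22 0.116, Pcdhga1 0.134, Pcdhga5 0.0708, Pcdhga12 0.144 and Pcdhgb2 0.122. With the library total as scale the log2 ratios of cluster sums were -0.053 for beta and 0.10 for gamma at P22, 0.25 for beta in the rounded TPM, and -0.072 for beta and -0.44 for gamma between ages.

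Replicate numbers did not pair the libraries (correlations of deviations -0.23 to 0.0845), and with a replicate block 0 members were called at P22, 0 in the P7 counts (1 at an unadjusted p under 0.05) and 0 in the rounded TPM. Low counts of alternate alpha isoforms at P7 limit what could be seen there. The CPM floors given for libraries without counts cover counting error only. The SD and SE values also include the spread between libraries.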
